A study of Mus musculus with 8 samples.

Results

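The genes described are 10 mouse cathepsins, *Ctse*, *Ctsd*, *Ctsa*, *Ctsb*, *Ctsc*, *Ctsh*, *Ctsz*, *Ctsk*, *Ctsl* and *Ctss*, taken by Entrez Gene ID from the 24594 genes of the deposited count table. All 10 were listed there. *Ctse* was picked because it differed between the luminal fractions compared here, so its values in that comparison are given as a description and without a test. The other 9 cathepsins were taken as its family. RNA was sequenced from 2 fractions of luminal cells of the virgin mammary gland of wild type C57BL/6J mice that received no treatment. Their age is not given in the labels, and the study's methods give only a range in weeks for the mice of all experiments. Luminal progenitors (LP, c-Kit high) and differentiated luminal cells (mature, c-Kit low) were sorted by flow cytometry, and the study names c-Kit as the marker that separated them. Its general sorting methods list stains for EpCAM, CD49f, c-Kit and CD14, and the text brings in CD14 for a later experiment. Cells with erythroid, endothelial or leukocyte surface markers were stained for exclusion. The table holds 4 LP and 4 mature libraries, made from amplified cDNA of small amounts of RNA. The labels do not say whether the 4 replicates of a fraction came from separate mice, so p-values measure the spread between these libraries, which may be technical. The methods speak of biological replicates, in a number per condition that is not the 4 of the table. Each replicate number has its own code in the labels, shared by its LP and its mature library, and the code's meaning is not stated. The libraries were compared as unpaired.

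Cathepsins are proteases that work mainly in lysosomes and endosomes. *Ctsd* and *Ctse* encode aspartic proteases, *Ctsa* a serine carboxypeptidase, and the remaining members cysteine proteases related to papain. They are made as inactive precursors, most of them are tagged with mannose 6-phosphate and carried to the lysosome by sorting receptors, and cystatins inhibit the cysteine members. In the mammary gland, lysosomal cathepsins are known for their part in the remodelling of the tissue when milk production ends. Transcription of many lysosomal genes is driven by the MiT/TFE factors, which bind an E-box with the core CACGTG.

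That core was looked for in the promoters of the members, since many lysosomal genes are known to carry it. RefSeq promoters (GRCm38.p6, 250 bases before to 50 after the transcription start) were at hand for 7 of the 10 members, and *Ctse*, *Ctsb* and *Ctsh* had no entry. Of the 8 promoters of these 7 genes, 3 held CACGTG, namely 1 of the 2 promoters of *Ctsa* and those of *Ctsd* and *Ctsl*, against 7.15% of the 32851 promoters in the table. The longer CLEAR element, which contains this core, was looked for too, but only as an exact match to 1 fixed spelling. That spelling extends the core by 2 bases on each side. It was in 0 of the 8 promoters and in 0.326% of the 32851 promoters. Sites that differ from it by a base were not counted, so the 0 does not show that these promoters lack CLEAR elements. CACGTG reads the same on both strands. The windows below show it in capitals, 5′ to 3′ on the strand of the gene and with the position of its first base from the transcription start, so that genes that differed between the fractions and genes that did not detectably can be set side by side.
*Ctsa*, position -12 from the transcription start, chr2:164833751-164833776, plus strand: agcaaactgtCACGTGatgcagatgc
*Ctsa*, position 5 from the transcription start, chr2:164833768-164833793, plus strand: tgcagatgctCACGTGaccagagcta
*Ctsd*, position -98, chr7:142387910-142387935, minus strand: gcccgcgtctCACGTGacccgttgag
*Ctsl*, position -236, chr13:64370741-64370766, minus strand: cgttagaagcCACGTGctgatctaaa
*Ctsd* held another match at position -245. The windows of *Ctsa* and *Ctsl* lie inside the annotated spans of these genes, so their positions count from a transcription start within the gene. The match is a description of the letters only.

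The libraries held between 5510863 and 7089597 counts on genes in LP and between 4410049 and 7791593 in mature cells. Levels are in CPM, counts relative to the TMM-scaled total of a library. A positive log2 fold change means a higher level in LP, it is given with its standard error (SE), and calls rest on an adjusted p under 0.05 in edgeR's quasi-likelihood test. *Kit*, the gene of the sorting receptor, was higher in LP (log2 fold change 2.96 ± 0.456, SE, edgeR adjusted p = 0.00143), which follows from the sort. Of the other progenitor markers, *Elf5* (2.02, edgeR adjusted p = 0.00524) and *Cd14* (6.25, edgeR adjusted p = 0.000104) were higher in LP. *Aldh1a3* missed the threshold (1.37, edgeR adjusted p = 0.0512). *Prlr*, the prolactin receptor gene, was higher in mature cells (-3.35, edgeR adjusted p = 0.000432). Of the mature libraries, replicate 3 had the highest summed progenitor and basal markers, and replicate 4 the next highest. The summed level of 4 progenitor markers was 966 CPM in mature replicate 3, against 244, 355 and 715 CPM in mature replicates 1, 2 and 4. That of 6 basal markers was 47.2 CPM, against 7.31, 5.78 and 24.4 CPM. Values that mature replicate 3 moved most are therefore also given without it.

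Of the cathepsins that were not chosen on this contrast, *Ctsa* was 1.93 times and *Ctsh* 2.14 times higher in LP, *Ctsc* was higher in every LP library but missed the threshold, and *Ctsb*, *Ctsd*, *Ctsl*, *Ctss* and *Ctsz* did not pass the test. *Ctse*, chosen for its difference, was 11.2 times higher in mature cells. In these bulk samples, more cells that express a gene and more RNA per cell cannot be told apart. Of the 9 cathepsins other than *Ctse*, 8 passed the filter on low counts, and 2 of these 8 had an adjusted p under 0.05, both higher in LP. Without mature replicate 3 the count was 3, with *Ctsc* added. By edgeR's quasi-likelihood test 0 were higher in mature cells, 0 also at an unadjusted p under 0.05 and by DESeq2. Of all 12816 genes tested, 10.9% were called with higher levels in LP and 13.8% in mature cells. The median log2 fold change of the 8 genes was 0.26, beside -2.85e-05 over all genes tested. The summed level of the 10 genes was 4095 ± 387 CPM (SD, n = 4) among LP libraries and 3684 ± 613 CPM among mature ones, with ranges that overlapped.

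**Figure D1:**
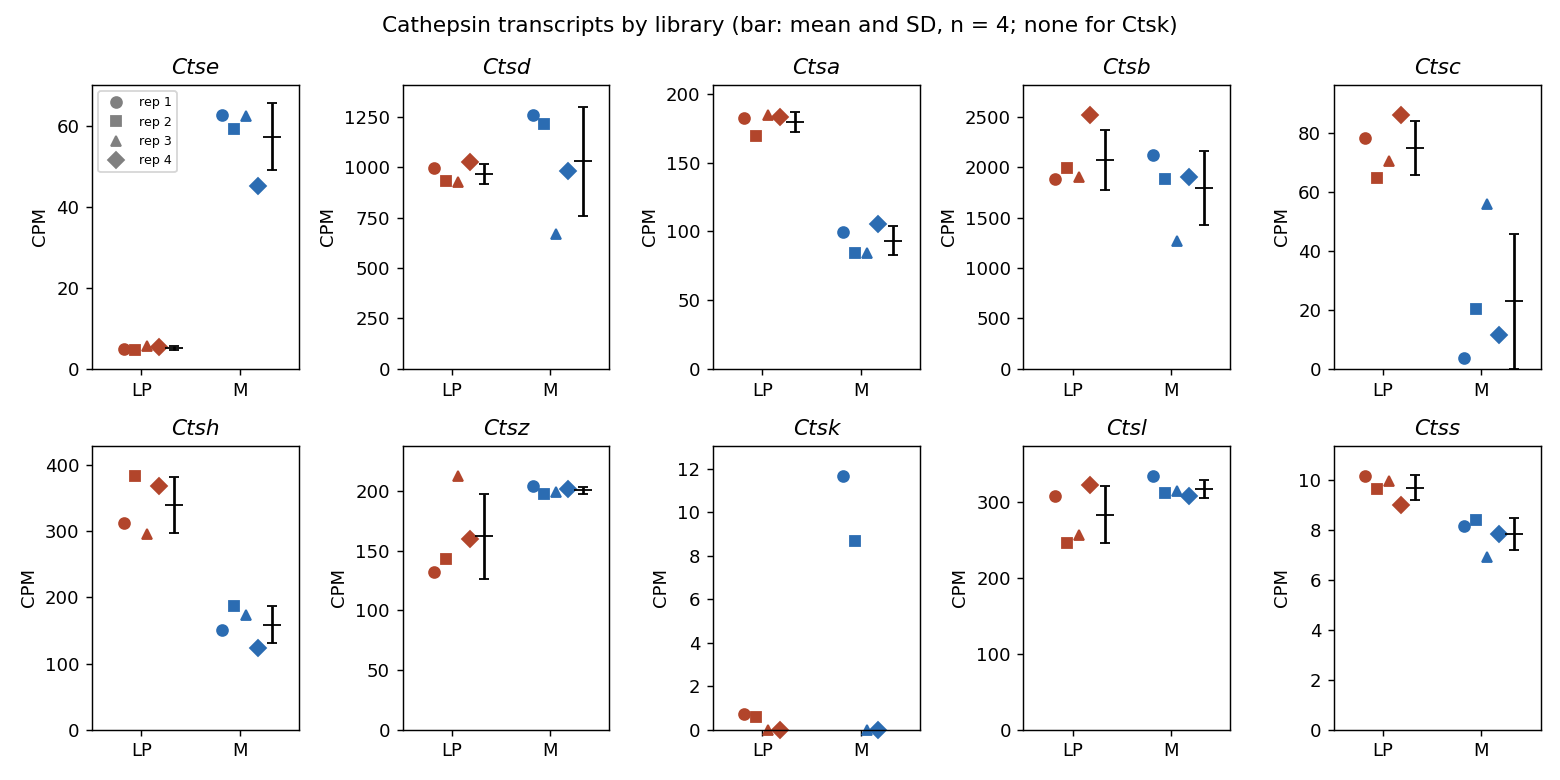
Level of each cathepsin in CPM (linear axes from 0) in the 4 LP (red) and 4 mature (M, blue) libraries; symbols mark the replicate number, and black bars give the mean and SD (n = 4), left out for *Ctsk*. *Ctse* lies between 4.60 and 5.64 CPM in LP and between 45.1 and 62.6 CPM in mature cells, *Ctsa* and *Ctsh* are higher in every LP library, and mature replicate 3 (blue triangle) is the highest mature library for *Ctsc*.

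Of the aspartic cathepsins, *Ctse* differed between the fractions and *Ctsd* did not detectably. *Ctse* (Entrez Gene 13034, mm10 chromosome 1 from 131638314 to 131675507) encodes cathepsin E, a protease of endosomes known from stomach and immune cells. Its LP libraries held 4.79, 4.60, 5.64 and 5.41 CPM for replicates 1 to 4, which are 33, 32, 34 and 39 counts, and its mature libraries held 62.6, 59.1, 62.5 and 45.1 CPM, which are 445, 225, 433 and 299 counts. Each mature library was thus several times above each LP library. The means were 5.11 ± 0.496 CPM (SD, n = 4) among LP libraries and 57.3 ± 8.33 CPM among mature ones, with a log2 fold change of -3.48 and a standard error of 0.222. Mature replicate 3, with its higher progenitor markers, held as much *Ctse* as mature replicate 1. Over the 15 alternative fits of these same libraries the log2 fold change of *Ctse* lay between -3.55 and -3.41. Since *Ctse* was chosen on this contrast, that range describes the processing and is no support for the difference.

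*Ctsd* (Entrez Gene 13033, chromosome 7 from 142375910 to 142387827) encodes cathepsin D, the main aspartic protease of the lysosome. It held 993, 929, 925 and 1025 CPM in LP replicates 1 to 4 and 1256, 1212, 668 and 980 CPM in mature replicates 1 to 4. The LP libraries lay within the range of the mature libraries, and mature replicate 3 was the lowest of all. The log2 fold change was -0.088 ± 0.210 (SE, edgeR adjusted p = 0.795), and its sign turned without mature replicate 1 (0.044) or mature replicate 2 (0.023). Without mature replicate 3 it was -0.22 (edgeR adjusted p = 0.338). Per kilobase of exon, *Ctse* stood at 0.392% ± 0.0427 (SD, n = 4) of *Ctsd* in LP and at 4.42% ± 1.69 (SD, n = 4) in mature cells. The highest of these ratios, 6.94%, came from mature replicate 3, where *Ctsd* was low, and mature replicates 1, 2 and 4 stood at 3.69%, 3.62% and 3.41%.

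*Ctsa* (Entrez Gene 19025, chromosome 2 from 164832872 to 164841032) encodes the protective protein, a serine carboxypeptidase that forms a complex with beta-galactosidase and neuraminidase in the lysosome. It held 182, 169, 184 and 184 CPM in LP replicates 1 to 4 and 99.3, 84.6, 84.2 and 105 CPM in mature replicates 1 to 4. Every LP library was above every mature library. The means were 180 ± 7.16 CPM (SD, n = 4) and 93.4 ± 10.7 CPM (SD, n = 4), a log2 fold change of 0.94 ± 0.141 (SE, edgeR adjusted p = 0.00122). The genes of its partners in the complex, picked out after their values had been seen, did not share one pattern. *Glb1*, the beta-galactosidase gene, was higher in LP (log2 fold change 1.09 ± 0.312, SE, edgeR adjusted p = 0.0264), with 1 LP library below the highest mature one. *Neu1*, the neuraminidase gene, had a log2 fold change of 0.0898 ± 0.236 (SE, edgeR adjusted p = 0.817).

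Among the cysteine cathepsins that trim proteins from their ends, *Ctsh* rose in LP. *Ctsh* (Entrez Gene 13036, chromosome 9 from 90054267 to 90076095) encodes an aminopeptidase. It held 312, 383, 296 and 368 CPM in LP replicates 1 to 4 and 151, 187, 174 and 123 CPM in mature replicates 1 to 4, so the fractions did not overlap. The means were 340 ± 42.3 CPM (SD, n = 4) among LP libraries and 159 ± 28.2 CPM among mature ones, a log2 fold change of 1.10 ± 0.175 (SE, edgeR adjusted p = 0.00172). The study lists *Ctsh* in the progenitor gene set that it drew from these libraries, so that listing is no independent evidence of the direction. *Ctsa* and *Ctsh* kept their direction and an adjusted p under 0.05 in all 15 alternative fits.

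*Ctsc* (Entrez Gene 13032, chromosome 7 from 88278024 to 88315861) encodes dipeptidyl peptidase I, which activates serine proteases of immune cell granules. It held 78.3, 64.7, 70.4 and 85.9 CPM in LP replicates 1 to 4, and 3.80, 20.2, 55.7 and 11.6 CPM in mature replicates 1 to 4. The LP libraries were alike, whereas the mature libraries spread widely and were led by replicate 3. The log2 fold change of 1.71 (standard error 0.595) had an adjusted p of 0.0591 from edgeR's quasi-likelihood test and so missed the threshold. Without mature replicate 3 it was 2.73, with an adjusted p of 0.00224, and with 1 of the 7 other libraries left out the adjusted p stayed above 0.05. Among mature libraries, replicate 3 also led for *Kit*, at 179 CPM against 42.7, 41.2 and 73.5 CPM, and for the summed progenitor and basal markers given above. The part of progenitor or basal cells in the level of *Ctsc* was not tested. The fit with a replicate block gave a log2 fold change of 2.24 (adjusted p = 0.0341), DESeq2 1.72 (adjusted p = 0.00889), edgeR's likelihood ratio test 1.71 (adjusted p = 0.0190) and a filter of 10 counts in every library 1.72 (adjusted p = 0.0380).

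**Figure D2:**
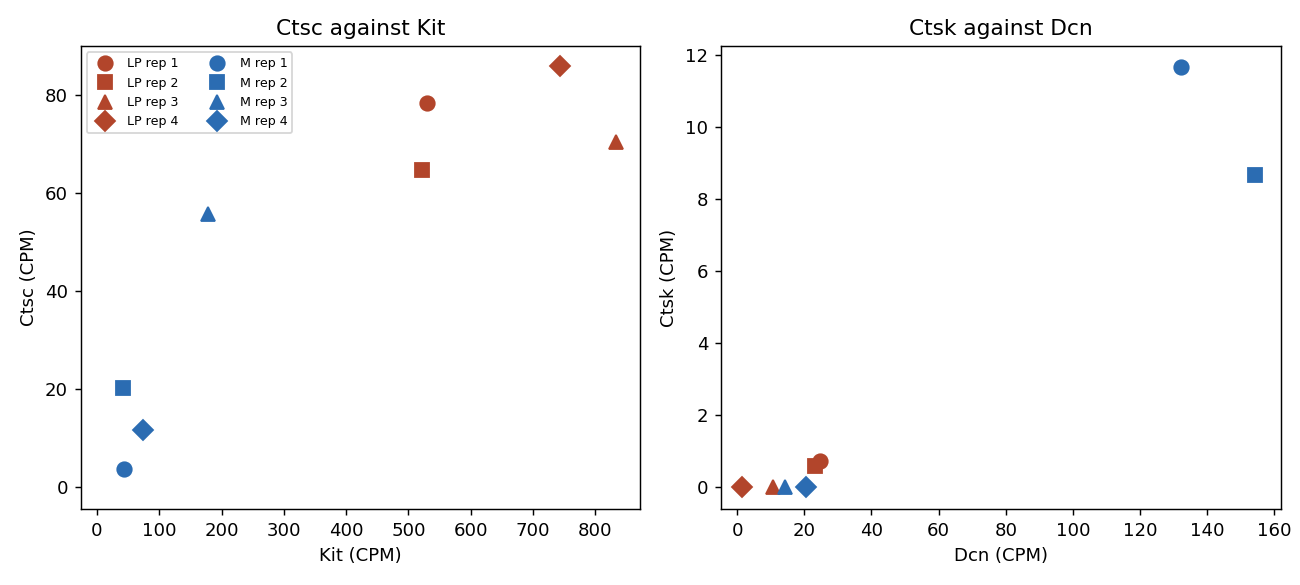
*Ctsc* against *Kit* (left) and *Ctsk* against *Dcn*, a fibroblast gene (right), all in CPM on linear axes, with 1 point for each of the 4 LP (red) and 4 mature (blue) libraries. Mature replicate 3 has 55.7 CPM of *Ctsc* and 179 CPM of *Kit*, both the highest of the mature libraries, and mature replicates 1 and 2 hold the most *Ctsk* and the most *Dcn*.

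*Ctsb* and *Ctsz* complete this group. *Ctsb* (Entrez Gene 13030, chromosome 14 from 63122462 to 63145923), the gene of the abundant lysosomal cathepsin B, held 1883, 1989, 1901 and 2513 CPM in LP and 2120, 1880, 1269 and 1898 CPM in mature replicates 1 to 4. Its fractions overlapped, with a log2 fold change of 0.21 ± 0.207 (SE, edgeR adjusted p = 0.500). As for *Ctsd*, mature replicate 3 was the lowest library, and without it the log2 fold change was 0.11 (edgeR adjusted p = 0.690). *Ctsz* (Entrez Gene 64138, chromosome 2 from 174427494 to 174439039), a carboxypeptidase gene, was nearly constant in mature cells, at 204, 198, 199 and 201 CPM, and more variable in LP, at 132, 143, 212 and 160 CPM. Only LP replicate 3 exceeded the mature libraries. The log2 fold change of *Ctsz* was -0.31 ± 0.169 (SE, edgeR adjusted p = 0.211).

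The endopeptidases *Ctsk*, *Ctsl* and *Ctss* had little in common. *Ctsl* (Entrez Gene 13039, chromosome 13 from 64361890 to 64370772), a broad lysosomal protease gene, held 309, 247, 256 and 324 CPM in LP and 335, 312, 315 and 308 CPM in mature replicates 1 to 4. These ranges overlapped, and the log2 fold change was -0.16 ± 0.148 (SE, edgeR adjusted p = 0.460). *Ctss* (Entrez Gene 13040, chromosome 3 from 95526786 to 95556405) is the gene of the protease that cleaves the invariant chain of MHC class II in antigen-presenting cells. Its level was low, with 10.2, 9.63, 9.96 and 9.02 CPM in LP and 8.16, 8.41, 6.93 and 7.84 CPM in mature cells. Every LP library was slightly above every mature library. The log2 fold change of 0.31 was nonetheless no larger than its standard error of 0.320 (adjusted p = 0.524 from edgeR). Of the 8 tested cathepsins other than *Ctse*, 4 had all LP libraries above all mature libraries, namely *Ctsa*, *Ctsc*, *Ctsh* and *Ctss*, and 0 the reverse. Over all tested genes the shares were 14% and 15.5%, or 29.5% in either direction.

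Myeloid markers were low. The 11 myeloid markers summed to between 42.8 and 57.3 CPM in LP and between 12.8 and 51.5 CPM in mature libraries, most of it from *Cd68*, itself a lysosomal membrane gene. *Tyrobp* had 0 counts in all 8 libraries, and *Ptprc*, which encodes the leukocyte antigen CD45, was at or under 0.277 CPM in each. *Csf1r*, the receptor gene of the macrophage growth factor, was seen in all 8 libraries, at 2.91 to 7.47 CPM in LP and 3.18 to 4.92 CPM in mature cells, while *Fcer1g* reached 3.47 CPM and *Adgre1* 1.96 CPM, both in mature replicate 4. The part of myeloid cells in the levels of *Ctss* and *Ctsc* was not tested.

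*Ctsk* (Entrez Gene 13038, chromosome 3 from 95499210 to 95509387), the collagen-degrading protease gene of osteoclasts, lies next to *Ctss* and did not pass the filter on low counts. It had 5, 4, 0 and 0 counts in LP replicates 1 to 4 and 83, 33, 0 and 0 counts in mature replicates 1 to 4. A count of 0 allows a level of up to 0.544 and 0.423 CPM in LP replicates 3 and 4. In mature replicates 3 and 4 it allows up to 0.420 and 0.447 CPM. The limit was taken as 3 counts of the library total and covers counting error only. That total was not scaled by TMM, so these limits are not on quite the same scale as the other levels. The gene was thus seen in both fractions of replicates 1 and 2 and in neither fraction of replicates 3 and 4. Fitted without the filter, its log2 fold change was -3.79 ± 1.67 (SE, edgeR adjusted p = 0.157). *Dcn*, which encodes the proteoglycan decorin of fibroblasts, was also highest in mature replicates 1 and 2, at 132 and 154 CPM against 14.1 and 20.6 CPM in mature replicates 3 and 4. The summed level of the 6 fibroblast markers was 138, 179, 28.3 and 27.0 CPM in mature replicates 1 to 4. In LP replicates 1 to 4 this sum was 41.7, 30.6, 27.6 and 7.35 CPM. In mature replicates 1 and 2 most of the sum was *Dcn* itself, and the other markers did not share the pattern of *Ctsk*. In mature replicates 1 to 4, *Lum* held 2.67, 5.52, 3.61 and 5.27 CPM and *Pdgfra* 0.562, 16.3, 2.74 and 0.151 CPM. *Col3a1* held 1.83, 2.63, 2.31 and 0 CPM there, and *Col1a2* was highest in mature replicate 3, at 4.04 CPM. *Col1a1*, a defining collagen gene of fibroblasts, had 0 counts in mature replicates 1, 2 and 4 and 10 counts in mature replicate 3. The part of fibroblasts in the level of *Ctsk* was not tested.

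To compare levels between genes, CPM were divided by the kilobases of annotated exon. In both fractions *Ctsd* led, at 412 ± 21.0 CPM per kb (SD, n = 4) in LP and 438 ± 115 CPM per kb (SD, n = 4) in mature cells, followed by *Ctsb* at 342 ± 49.2 and 296 ± 60.3 CPM per kb, and the libraries of these neighbours overlapped. *Ctsz* came next, at 112 ± 24.7 and 139 ± 1.94 CPM per kb. In LP it was followed by *Ctsh* (75.6 CPM per kb), *Ctsl* (43.7), *Ctsa* (38.1), *Ctsc* (12.9), *Ctss* (7.14), *Ctse* (1.61) and *Ctsk* (0.215). Among these only *Ctsl* and *Ctsa* had libraries that overlapped. In mature cells the order after *Ctsz* was *Ctsl* (49.0 CPM per kb), *Ctsh* (35.2), *Ctsa* (19.8), *Ctse* (18.1), *Ctss* (5.77), *Ctsc* (3.93) and *Ctsk* (3.36). There *Ctse* lay at the level of *Ctsa*, with overlapping libraries, and the libraries of *Ctss* and *Ctsc*, and of *Ctsc* and *Ctsk*, overlapped. With the longest RefSeq transcript as length *Ctsz* fell to place 5 in LP and 4 in mature cells, and *Ctse* stood above *Ctsa* in mature cells.

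**Figure D3:**
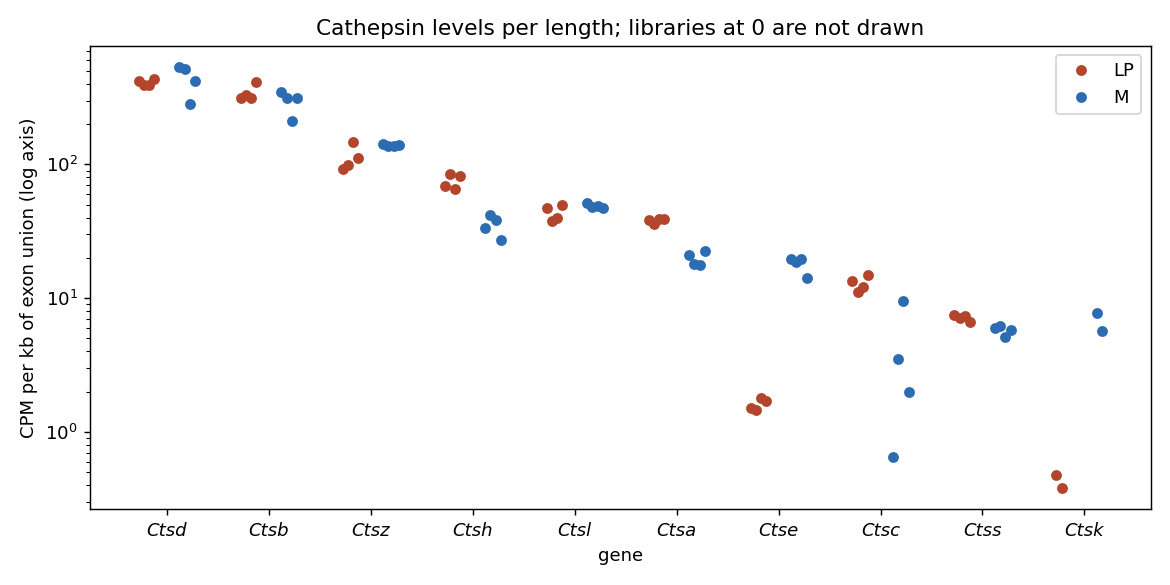
Level of each cathepsin per kilobase of exon (log axis) in the LP (red) and mature (blue) libraries, with 1 point per library, genes ordered by their mean over all 8 libraries and libraries at 0 not drawn. *Ctsd* and *Ctsb* are the highest in both fractions, and *Ctse* stands at a mean of 1.61 CPM per kb in LP and 18.1 CPM per kb in mature cells.

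Annotated exons of some members are shared with other genes, on the same or the opposite strand, and the sources used here do not say how reads from such stretches were counted. In GENCODE M21 this held for 34.4% of the exon length of *Ctsd*, 26.8% of *Ctsl*, 17.4% of *Ctsa*, 12.8% of *Ctsb* and 0.694% of *Ctsz*. The other 5 members shared none.

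The genes most like *Ctse* were *Dlgap1*, *Gm11110* and *Abhd2*, with Pearson correlations of 0.992, 0.992 and 0.991 of log2 CPM over the 8 libraries. *Dlgap1* had 21.8 ± 0.996 CPM (SD, n = 4) among LP libraries and 51.4 ± 5.64 CPM among mature ones. *Gm11110*, a long noncoding RNA gene, had 8.98 ± 0.678 and 36.5 ± 3.71 CPM, and *Abhd2*, which the study lists in its mature gene set drawn from these libraries, had 46.8 ± 7.75 and 193 ± 23.2 CPM. The correlations are a description over libraries of both fractions, and 220 tested genes had one above 0.95 with *Ctse*.

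Of the 13 mouse cathepsin genes outside the family described so far, 2 passed the filter on low counts and 0 of these were called by edgeR's quasi-likelihood test. *Ctsf* had a log2 fold change of -0.92 ± 0.337 (SE, edgeR adjusted p = 0.0705, unadjusted 0.0199) and *Ctso* one of 0.85 ± 0.339 (SE, edgeR adjusted p = 0.0919, unadjusted 0.0292). *Ctsf* was called higher in mature cells by DESeq2 and by the likelihood ratio test. Both genes had libraries that overlapped between the fractions. *Ctsj* and *Ctsr*, picked out after their values had been seen, belong to the cluster of rodent cathepsins known from the placenta, on the same chromosome as *Ctsl*. *Ctsj* had 4, 0, 0 and 0 counts in LP replicates 1 to 4 and 86, 110, 0 and 93 counts in mature replicates 1 to 4. *Ctsr* had 0 counts in each LP library and 46, 101, 0 and 24 counts in mature replicates 1 to 4. Both were seen in the same 3 mature libraries and had 0 counts in mature replicate 3. They did not pass the filter. Both were tested and called higher in mature cells when no filter was set, without mature replicate 3 and without any 1 of the 4 LP libraries. In the fits with a filter they could pass only through the mature libraries. The direction of those calls was therefore fixed in advance, and they are no support for a difference. These genes resemble each other closely, and how the counting treated reads that match several genes is not given in the sources used here, so the split between them is uncertain.

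The aspartic peptidases related to *Ctsd* and *Ctse* were mostly silent, as 2 of 6 passed the filter and 0 were called by edgeR's quasi-likelihood test. *Bace2*, a beta-secretase relative, had 2.26 ± 0.789 (SE, edgeR adjusted p = 0.0599, unadjusted 0.0159) as its log2 fold change, with every LP library above every mature library, and *Bace1* had 0.74 ± 0.313 (SE, edgeR adjusted p = 0.111, unadjusted 0.0384). *Bace2* was called higher in LP by DESeq2, by the likelihood ratio test and without mature replicate 3, and both genes without mature replicate 1.

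Inhibitors of the cysteine cathepsins did not differ detectably. Of 14 cystatin genes 3 were tested and 0 called by edgeR's quasi-likelihood test, 0 at an unadjusted p under 0.05, and DESeq2 called 0 too. *Cstb*, the cytosolic inhibitor stefin B, had 337 ± 41.5 CPM (SD, n = 4) among LP libraries and 340 ± 38.7 CPM among mature ones, and *Cst3*, the secreted cystatin C, 154 ± 33.4 and 188 ± 44.8 CPM. Of the 4 MiT/TFE factor genes, 3 were tested and 0 called, with log2 fold changes between -0.41 and 0.41, none at an unadjusted p under 0.05 and 0 by DESeq2.

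The genes that sort and process cathepsins were all tested, and 2 of 9 were called, both higher in mature cells, beside 13.8% of all genes in that direction and 24.7% in either. The median log2 fold change of the 9 genes was 0.28, towards LP. *Lgmn* encodes legumain, the protease that cleaves several cathepsin precursors into their mature chains. It held 58.4, 47.4, 53.0 and 35.0 CPM in LP replicates 1 to 4 and 127, 102, 146 and 158 CPM in mature replicates 1 to 4, with no overlap. Its log2 fold change was -1.46 ± 0.204 (SE, edgeR adjusted p = 0.000884), and the study lists it in the mature gene set drawn from these libraries. *Sort1*, the gene of the sorting receptor sortilin, had a log2 fold change of -0.68 ± 0.173 (SE, edgeR adjusted p = 0.0161). The mannose 6-phosphate receptor gene *M6pr* had a log2 fold change of 0.43 (standard error 0.156) and missed the threshold with an adjusted p of 0.0706 (edgeR, unadjusted 0.0199). Every LP library was above every mature library for *M6pr*. *Scarb2* and *Gnptab*, picked out after their values had been seen, were not called either. Their log2 fold changes were 0.56 and 1.16 (edgeR unadjusted p = 0.0273 and 0.0328).

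**Figure D4:**
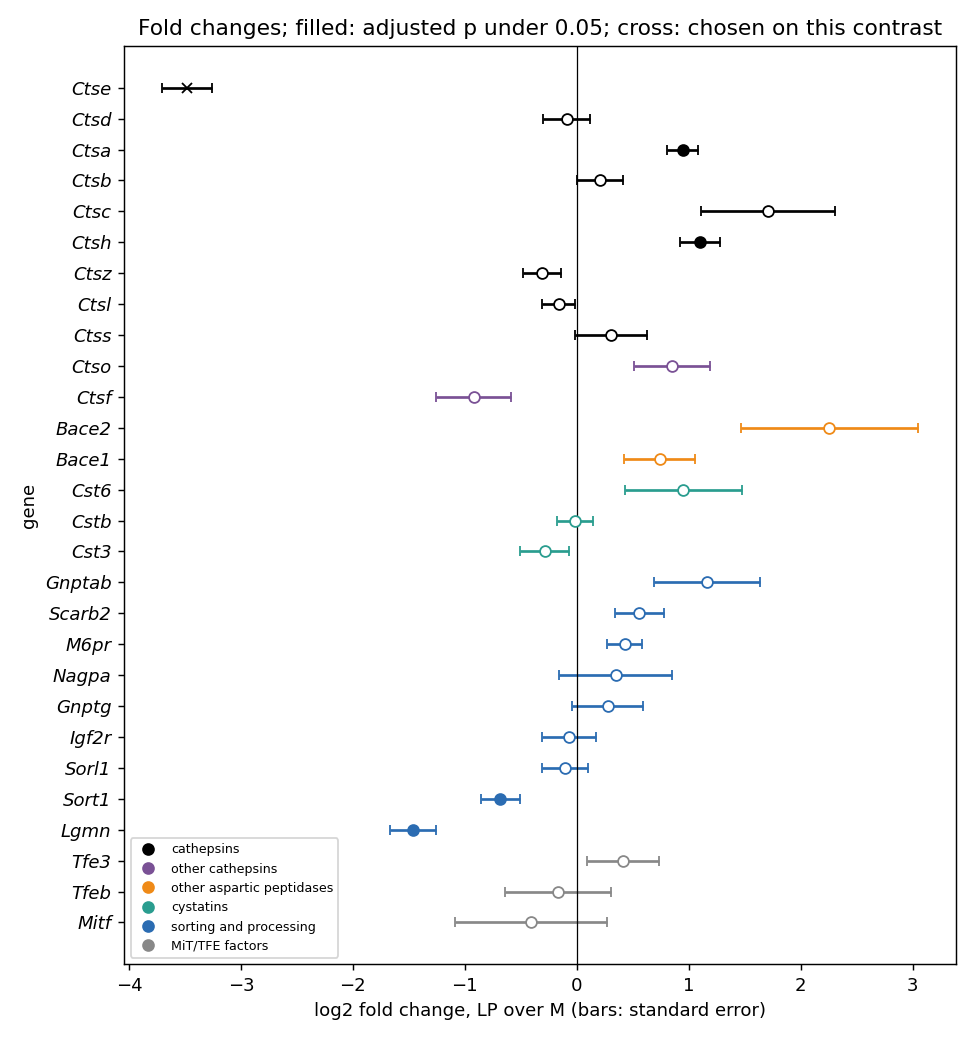
Log2 fold change of LP over mature cells with its standard error for the tested cathepsins and the tested genes of the related lists, 1 color per list; filled points have an adjusted p under 0.05 from edgeR's quasi-likelihood test, and the cross marks *Ctse*, which was chosen on this contrast. *Ctsa* (0.94) and *Ctsh* (1.10) lie to the right, *Lgmn* (-1.46) and *Sort1* (-0.68) to the left, and cystatins and MiT/TFE genes are unfilled.

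The other lysosomal hydrolases and their cofactors differed in both directions. All 36 listed genes were tested, of which 9 rose in LP and 4 in mature cells, beside the 10.9% and 13.8% of all genes. Their median log2 fold change was 0.39. Without mature replicate 3 the counts were 10 and 5. *Lipa*, the lysosomal acid lipase gene, held 747, 858, 451 and 522 CPM in LP and 22.6, 39.9, 74.5 and 43.7 CPM in mature replicates 1 to 4, a log2 fold change of 3.83 ± 0.369 (SE, edgeR adjusted p = 0.000224). *Hgsnat*, a heparan sulfate degradation gene, rose on the log2 scale by 1.13 ± 0.235 (SE, edgeR adjusted p = 0.00627). Higher in mature cells were *Fuca1*, the fucosidase gene (log2 fold change -0.99, adjusted p = 0.00137), *Manba*, the beta-mannosidase gene (-1.01, adjusted p = 0.00342), and *Npc2*, which encodes a cholesterol carrier of the lysosome (-0.82, adjusted p = 0.0113). *Lipa* is in the progenitor gene set that the study drew from these libraries.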

How the data were processed

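RNA from 4 LP and 4 mature libraries was measured by RNA sequencing. As the study's methods state, the authors trimmed reads with cutadapt and aligned them with bowtie2 to mm10, and they deposited raw counts per gene, whole numbers without normalization. The counting program is not given in the sources used here. Symbols and positions came from RefSeq (GRCm38.p6), which matched 24570 of 24594 IDs, and exon lengths from GENCODE M21. Counts were normalized by TMM, filtered with filterByExpr (12816 genes left) and compared with the quasi-likelihood test of edgeR 4.0.16 in R 4.3.3, with p-values adjusted by Benjamini-Hochberg across the 12816 genes and a threshold of 0.05. The standard error is the absolute log2 fold change divided by the square root of F. Alternatives were RLE and upper-quartile factors, no filter, 10 counts in every library, DESeq2 1.42.0, the likelihood ratio test, a replicate block and each library left out. Members and lists were chosen with earlier results of these data known. Named genes were the 10 members, up to 3 per direction of each list by adjusted p, the 3 genes most like *Ctse*, and marker genes. 1 gene that this rule names is not reported here. Libraries of a fraction differed beyond counting noise (chi-square per degree of freedom 12.6 to 95.7).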

Additional observations from a re-analysis of the deposited data

Results flagged for a closer look

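In 20 groups of 4 libraries (10 genes in 2 fractions), 2 had a library far from the others by Dixon's 95% criterion, where chance flags about 1 group in 20. For *Ctsa* the lowest LP library, replicate 2, lay at a gap of 0.855 of the range, at 169 CPM against 182 to 184 CPM, a small step in a narrow range. For *Ctsb* the highest LP library, replicate 4, lay at a gap of 0.831, at 2513 CPM against 1883 to 1989 CPM.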

How the results depend on the processing

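Of the 9 cathepsins other than *Ctse*, *Ctsa* and *Ctsh* were called in each of the 15 alternative fits, and *Ctsc* in 5 of them (adjusted p from 0.00224 to 0.129). The log2 fold change of *Ctsd* ranged from -0.22 (without mature replicate 3) to 0.044 (without mature replicate 1) with a library left out, was 0.023 without mature replicate 2, and was called in none. The count of other cathepsin genes higher in mature cells, 0 in the fit reported, was 1 with DESeq2 (*Ctsf*), 1 with the likelihood ratio test (*Ctsf*) and 2 when no filter was set (*Ctsj* and *Ctsr*, which the filter had removed), and 0 to 2 with a library left out. The count of those higher in LP was 0 to 1 with a library left out (*Ctso* without mature replicate 4). For the other aspartic peptidases higher in LP it was 1 with DESeq2 and 1 with the likelihood ratio test, and 0 to 2 with a library left out. For sorting and processing genes higher in LP it was 1 with DESeq2 and 1 with the replicate block, and 0 to 2 with a library left out (*M6pr* and *Scarb2* without mature replicate 4). The cause was not tested. In fits with a library left out, *Ctsj* and *Ctsr* could pass the filter only through the mature libraries. With the longest RefSeq transcript as length, 4 of 10 cathepsins kept their rank by level per kb in mature cells and 7 in LP, while *Ctsd* and *Ctsb* stayed first and second in both. The fit reported had no replicate block, because the methods name no pairing. Libraries with the same number correlated in their deviations from the fraction means by 0.0618 to 0.148. Whether the number marks a pair is not settled. The labels give both libraries of a number a shared sample code whose meaning they do not state. All 4 LP libraries and 3 of the 4 mature libraries correlated best with their own number. With the replicate block 3 cathepsins other than *Ctse* were higher in LP (*Ctsc* added), and 1388 of all genes were higher in LP. *Ctsk* was tested only when no filter was set and was not called.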
